A study of Mus musculus with 24 samples.

Results

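Pioglitazone alone was compared with culture without drug after 24 h in organ of Corti (OC) explants, the dissected sensory strip of the cochlea. The members were chosen by label: the 3 libraries labelled pioglitazone (PIO) and the 3 labelled control (CTRL) at 24 h. They were 6 of the 24 libraries of the series, with all 24454 genes of the count table. This choice and the gene lists used below were made with earlier results of these data known. Explants came from C57BL/6N pups of both sexes at postnatal day 5 (P5). They were kept in medium with serum, and 10 μM pioglitazone was given to the PIO explants while CTRL explants ran in parallel without drug. The other libraries come from explants given gentamicin (GM, 50 μM), an aminoglycoside toxic to hair cells, or both drugs (PIO + GM), and from all 4 conditions at 6 h. Each library pooled 6 explants, so the cell types of the dissected strip were mixed. No label ties a library to a litter or a day, and the p-values therefore measure the spread between these samples, which may be partly technical. The question was what the drug does to RNA levels in tissue that has not been damaged by gentamicin.

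Pioglitazone belongs to the thiazolidinediones and activates PPAR-γ, a nuclear receptor that binds DNA as a heterodimer with RXR. The preferred site of the heterodimer is a direct repeat of the core motif AGGTCA with 1 base between the copies. PPAR family members drive genes for the uptake, storage and oxidation of fatty acids. In macrophages and other cells, ligand-bound PPAR-γ is also known to restrain inflammatory genes that depend on NF-κB and STAT factors.

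Library totals ran from 11516308 to 15548856 counts on genes, and 3 counts, taken as the lowest level that could be read, corresponded to 0.193 to 0.2605 CPM (counts scaled to library size), which covers counting error only. Markers of the expected cell types were present in all 6 libraries. Hair cell transcripts of Pou4f3 and Myo7a were at 6.12 to 16.1 and 61.5 to 94.9 CPM, and the supporting cell transcripts of Sox2 and Otoa at 44.2 to 79.9 and 208 to 507 CPM. Markers of other cells were present as well: macrophage Csf1r was at 13.3 to 55.7 CPM, neuronal Nefl at 10.1 to 67.7 CPM, endothelial Pecam1 at 21.2 to 52.6 CPM and connective tissue Col1a1 at 15.9 to 212 CPM. Libraries differed beyond their group. Counts on 1479 olfactory and vomeronasal receptor genes made up 122.3, 39.13 and 141.3 CPM in CTRL replicates 1 to 3 and 48.69, 39.52 and 76.34 CPM in the PIO replicates, and CTRL replicate 3 had the highest level of many inflammatory genes. The RNA of Y-linked genes ranged from 0.5145 to 376.5 CPM, so the share of males differed between pools. It was at 1.216 CPM in CTRL replicate 3 and 0.5145 CPM in PIO replicate 1, so these 2 pools held little or no male tissue. In bulk RNA, fewer cells of a type and less RNA per cell cannot be told apart.

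Of 16317 genes with enough counts to test, 25 (0.153%) differed between PIO and CTRL at an adjusted p under 0.05, of which 6 were higher with pioglitazone (0.0368%) and 19 lower (0.116%). The genes that rose included lipid-handling enzymes and factors (Angptl4, Cpt1a, Acadl). Those that fell included Unc13c, Grik1, Grm7, Elfn1, Gap43 and Plppr5, known from synapses and axons, Postn, Ecm2, Mfap4 and Fbln7, known from the extracellular matrix, and Serping1 and C1ra of complement. These groupings were made after the calls were seen and were not tested as themes. Deviations from the group means correlated between same-numbered CTRL and PIO libraries at 0.1075, 0.5608 and 0.227. CTRL replicate 3 correlated more with PIO replicate 1 (0.4157), and CTRL replicate 1 more with PIO replicate 3 (0.246), so pairing by number is uncertain. With that number as a block 241 genes passed (1.48%), 38 higher (0.233%) and 203 lower (1.24%), including all 25. The fold changes of all tested genes were centred on zero, with a median log2 fold change of -0.01. C1qtnf5 and Mfrp, which overlap on the same strand, had identical counts, so the 25 calls rest on 24 separate count rows.

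**Figure D1:**
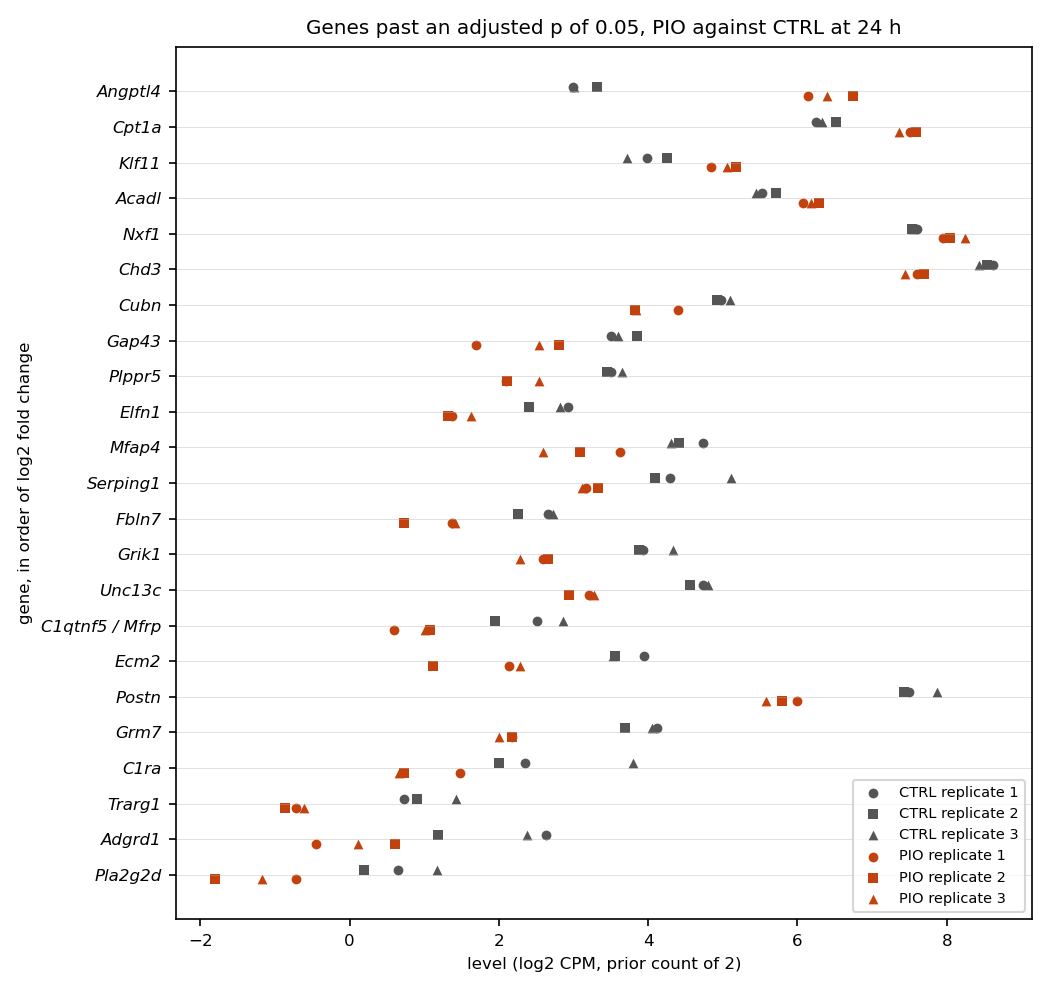
Level of the genes that passed the test, without the 1 not reported here, as log2 CPM on the horizontal axis, with 1 row per gene and 1 point per library at 24 h (grey for CTRL, orange for PIO, the shape giving the replicate). In each row the 3 PIO libraries lie on 1 side of the 3 CTRL libraries, higher for 5 genes and lower for the other 19, of which C1qtnf5 and Mfrp share 1 row.

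The largest rise was that of Angptl4, which encodes a secreted inhibitor of lipoprotein lipase. It was at 7.82, 9.78 and 7.86 CPM in CTRL and at 70.4, 107 and 84.1 CPM in PIO, and every PIO library was several times above every CTRL library. The log2 fold change was 3.35 ± 0.43 (SE), a 10.2-fold higher level (adjusted p = 0.00176).

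Cpt1a, whose product loads long-chain fatty acids onto carnitine for entry into mitochondria, had the lowest p-value of all genes. It was at 76.1, 91.8 and 80.1 CPM in CTRL and at 182, 193 and 165 CPM in PIO, so its groups lay far apart relative to their spread (log2 fold change 1.12 ± 0.12, adjusted p = 0.00017). Acadl, the long-chain acyl-CoA dehydrogenase of the first step of β-oxidation, was at 45.9, 52.3 and 43.5 CPM in CTRL and 67.2, 77.9 and 72.1 CPM in PIO. The rise was smaller, at 0.62 ± 0.12 on the log2 scale (adjusted p = 0.0402). Per kilobase of gene length, the mean levels in PIO were 45.8 RPKM (CPM divided by the gene length in kilobases) for Angptl4, 41.8 RPKM for Cpt1a and 37.2 RPKM for Acadl.

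Promoters were read from RefSeq on build GRCm38.p6, as the 250 bases before an annotated start, to show the letters near genes that moved. Entries were found for 41 of the 52 tested genes of the fatty acid list described next, with none for Angptl4. The full direct repeat, AGGTCA written again after any 1 base and searched on both strands, was in 0 of these 41 promoters and in 11 of 27025 promoters of all genes (0.0407%). The single core motif AGGTCA, which the repeat contains, was in 8 of the 41 (19.5%) and in 15.8% of all promoters, so it was about as frequent as elsewhere. The promoter of Cpt1a at chr19:3323051-3323300 (plus strand), shown because Cpt1a had the lowest p-value, held it on the other strand. Its complement stands in capitals, with its first base 94 bases before the start used. The annotated span of the gene begins at chr19:3322326, so the printed stretch lies inside that span.
Cpt1a: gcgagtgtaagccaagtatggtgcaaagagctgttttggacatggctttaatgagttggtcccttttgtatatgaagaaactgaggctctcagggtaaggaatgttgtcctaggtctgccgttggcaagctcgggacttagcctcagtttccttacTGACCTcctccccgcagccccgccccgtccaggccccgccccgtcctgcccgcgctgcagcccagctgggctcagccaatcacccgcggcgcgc

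The wider list of PPAR target and fatty acid oxidation genes held 58 genes, of which 52 could be tested. The untested members were Fabp4, Cyp4a10, Cyp4a14, Cyp4b1, Adipoq and Aqp7. Of the 52, 40 were higher and 12 lower in PIO, with a median log2 fold change of 0.21, beside 7930 higher and 8386 lower of all tested genes. The test was passed by 4 of them, all higher and including Angptl4, Cpt1a and Acadl, against 0.0368% of all genes called higher. In 23 of the 52 (44.2%) all 3 PIO libraries were above all 3 CTRL libraries, against 11.7% of all genes, and in 2 (3.85%) they were below, against 10.6%. With the block, 9 of the 52 passed (17.3%, against 0.233% of all genes), all higher, but once CTRL replicate 3 was also left out only Cpt1a and Angptl4 did. The 5 that were added, named after their values were seen, were Eci2, an isomerase for unsaturated fatty acids (log2 fold change 0.62 ± 0.14, adjusted p = 0.0647, with the block 0.0107), Pdk4, which shuts pyruvate out of oxidation (1.30 ± 0.33, 0.113 and 0.0254), Cpt2, the inner partner of Cpt1a (0.56 ± 0.18, 0.255 and 0.0289), the very long-chain dehydrogenase Acadvl (0.51 ± 0.13, 0.153 and 0.0427), and the thiolase Acaa2 (0.56 ± 0.20, 0.326 and 0.0441).

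Other members did not pass, with or without the block, and their log2 fold changes ran down to -1.101. Acadm, the medium-chain dehydrogenase, was at 0.19 ± 0.14 on the log2 scale and did not pass the test (adjusted p = 0.697). Fabp5, a fatty acid carrier, lay the other way at -0.61 ± 0.19 (adjusted p = 0.237), with all 3 PIO libraries below CTRL. None of 17 tested lipid droplet genes passed, with or without the block. Plin2, a lipid droplet coat protein known as a PPAR target, was at 39.7, 42.5 and 38.4 CPM in CTRL and 43.4, 44.6 and 40.1 CPM in PIO, and these ranges overlapped.

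**Figure D2:**
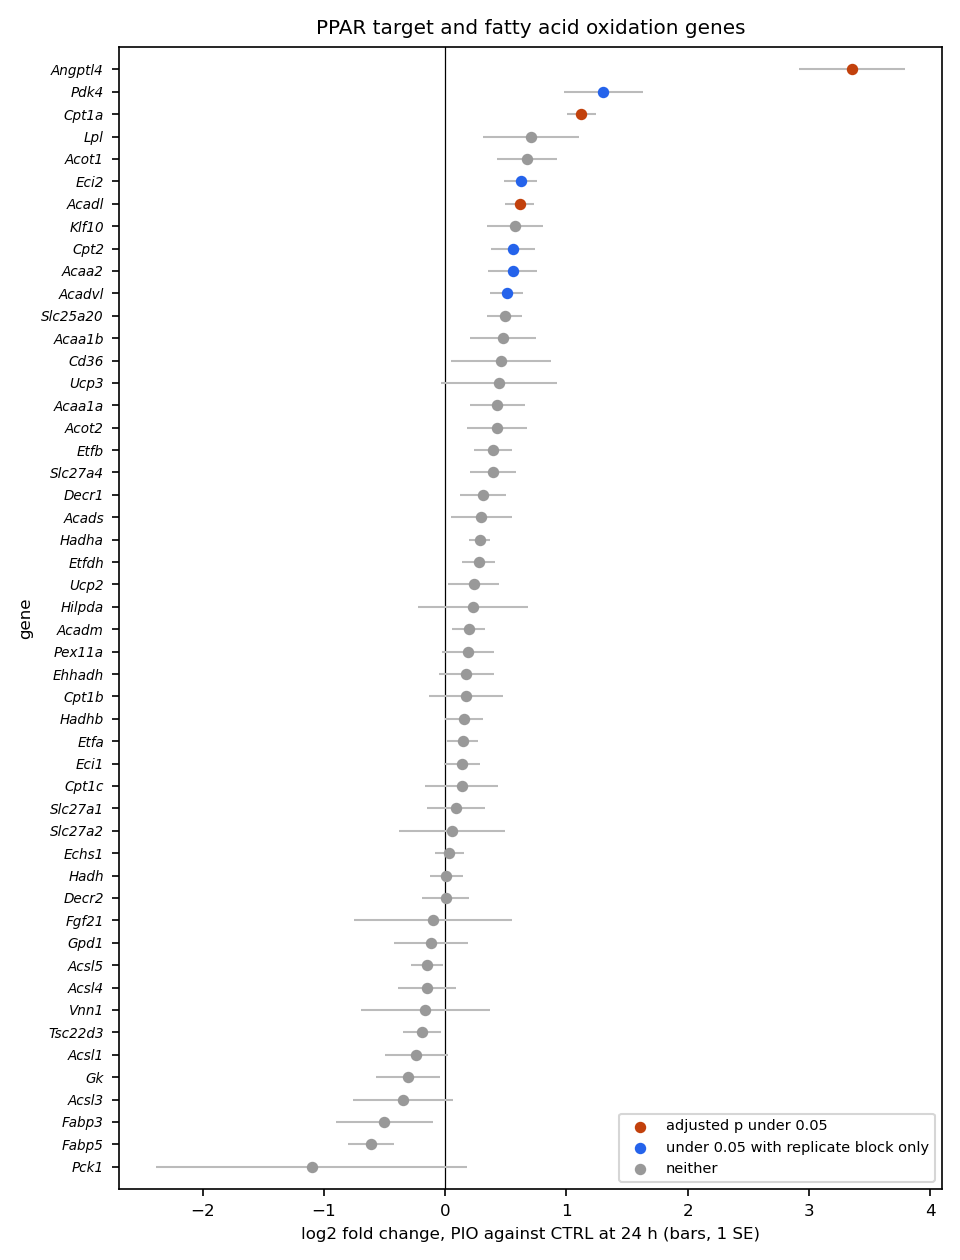
log2 fold change of PIO against CTRL at 24 h for 50 of the 52 tested PPAR target and fatty acid oxidation genes (points, with bars of 1 SE), coloured by whether they passed the test without the block, with it only, or not at all. Angptl4 stands apart at 3.35, and 38 of the 50 points lie above zero.

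Neither the receptor genes nor their partners passed the main test. Pparg, the gene of the drug's target, was at 2.46, 0.991 and 2.97 CPM in CTRL and 1.157, 0.521 and 1.29 CPM in PIO, and these ranges overlapped, with CTRL replicate 2 the lowest of its group. Its log2 fold change was -1.09 ± 0.40 (adjusted p = 0.332), and it alone of 18 receptor and cofactor genes passed with the block (adjusted p = 0.0305, 5.56% against 1.24% of all genes called lower), but not with the block once CTRL replicate 3 was left out (adjusted p = 0.2008). Per kilobase, Ppara was at 1.76 RPKM in CTRL and 1.75 RPKM in PIO, above Pparg at 0.921 and 0.425 RPKM. The log2 fold changes of Ppara, Ppard and Rxra were -0.01 ± 0.16, -0.19 ± 0.28 and -0.12 ± 0.26.

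Klf11 and Nxf1 also rose. Klf11, a Krüppel-like transcription factor, was at 15.7, 19 and 13 CPM in CTRL and 28.4, 36.1 and 33.1 CPM in PIO (log2 fold change 1.03 ± 0.18, adjusted p = 0.0188). Nxf1, the main export receptor of messenger RNA, was at 195, 185 and 186 CPM in CTRL and 248, 264 and 302 CPM in PIO (0.52 ± 0.10, adjusted p = 0.0402). In both genes the libraries of the groups did not overlap, but of the 6 fits that left out 1 library Klf11 passed in 2 and Nxf1 in 0.

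Genes of cholesterol export and synthesis were examined next, since PPAR-γ is known to act on the liver X receptor (LXR) axis in macrophages. Abca1, the exporter that loads cholesterol onto apolipoproteins, was at 510, 522 and 419 CPM in CTRL and 894, 939 and 805 CPM in PIO. The groups did not overlap, yet the adjusted p was 0.0925 (log2 fold change 0.86 ± 0.21), and with the block 0.0287. It did not pass with the block once CTRL replicate 3 was left out (adjusted p = 0.1503). Of the 16 tested genes of the LXR list, 9 were higher and 7 lower, down to -1.07 for the sterol exporter gene Abcg5, and no other passed with the block (6.25% of the list, against 0.233% of all genes called higher). Mylip, which marks the LDL receptor for degradation, was at 0.37 ± 0.14 (adjusted p = 0.356), and the LXRα gene Nr1h3 at 0.17 ± 0.31.

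Of 28 sterol synthesis genes, 26 were lower in PIO and 2 higher, with a median log2 fold change of -0.23. None passed without the block and 7 had an unadjusted p under 0.05, all lower (6.51% of all genes). In 12 of the 28 (42.9%) the PIO libraries were all below the CTRL libraries, against 10.6% of all genes. Hmgcs1, the cytosolic enzyme that makes the precursor of mevalonate, was at 184, 148 and 171 CPM in CTRL and 106, 105 and 128 CPM in PIO. Its log2 fold change was -0.57 ± 0.17 (adjusted p = 0.203), and it was the sole member to pass with the block (adjusted p = 0.0467), 3.57% of the list against 1.24% of all genes called lower, a share that rests on 1 gene. Insig1, which holds the sterol sensor in the endoplasmic reticulum, was at -0.47 ± 0.19 (adjusted p = 0.383). At 6 h the same 28 genes were 13 higher and 15 lower, and with gentamicin at 24 h 7 higher and 21 lower. Of 18 fatty acid synthesis genes, 14 were lower and none passed.

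The promoter of Hmgcs1 at chr13:119690101-119690350 (plus strand) is shown because that gene had the lowest p-value of the sterol list. It held the sterol response motif TCACNCCAC (capitals), whose first base lay 137 bases before the start. That motif was in 1 of 20 promoters of the list (5%) and in 1.22% of all promoters. It was also in 3 of 41 promoters of the fatty acid oxidation list (7.32%).
Hmgcs1: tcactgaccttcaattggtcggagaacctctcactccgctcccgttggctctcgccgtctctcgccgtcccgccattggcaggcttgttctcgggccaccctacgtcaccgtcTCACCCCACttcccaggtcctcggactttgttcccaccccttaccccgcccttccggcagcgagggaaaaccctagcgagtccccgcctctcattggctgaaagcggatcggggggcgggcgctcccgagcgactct

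Unc13c, a priming factor of synaptic vesicles, was at 26.4, 23.5 and 27.8 CPM in CTRL and 9.13, 7.48 and 9.51 CPM in PIO, and the groups were well separated (log2 fold change -1.57 ± 0.25, adjusted p = 0.0153). Grik1, a kainate receptor subunit, fell to a similar extent (-1.57 ± 0.26, adjusted p = 0.0179), as did the metabotropic glutamate receptor gene Grm7, from 17.2, 12.8 and 16.4 CPM to 4.37, 4.36 and 3.86 CPM (-1.88 ± 0.37, adjusted p = 0.0408). Elfn1, a postsynaptic partner of that receptor, was at -1.33 ± 0.27 (adjusted p = 0.0441). Plppr5, a neuronal membrane protein, had the lowest p-value of the genes that fell, from 11.2, 10.8 and 12.4 CPM to 4.11, 4.16 and 5.65 CPM (-1.30 ± 0.19, adjusted p = 0.00519).

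Gap43, a growth cone protein, was at 11.2, 14.3 and 12 CPM in CTRL and 3.08, 6.83 and 5.65 CPM in PIO (-1.27 ± 0.23, adjusted p = 0.0293). It was the single call among 19 spiral ganglion neuron markers (5.26%, against 0.116% of all genes called lower), of which 17 were lower, with a median log2 fold change of -0.38. That median rested on single libraries: it was 0.35 without CTRL replicate 2, with 11 higher and 8 lower, and -0.04 without PIO replicate 1, and it ran down to -0.63 without PIO replicate 2 and -0.58 without CTRL replicate 3. Gap43 itself passed in 0 of the 6 fits that left out 1 library. The mean log2 CPM of these markers was 3.53, 4.65 and 3.06 in CTRL and 2.84, 4.08 and 3.63 in PIO, and these ranges overlapped. Of 19 Schwann cell markers 17 were lower (median -0.34), and none passed, but without CTRL replicate 2 there were 8 higher and 11 lower (median -0.12). The part of neuronal content in the synaptic genes was not tested. Nos1, neuronal nitric oxide synthase, passed with the block but not the main test (-1.50 ± 0.32, adjusted p = 0.0638 and with the block 0.00653).

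Of the called genes known from the matrix, Postn had the lowest p-value. Periostin, the product of Postn, is a matrix protein of connective tissue, and its RNA was at 181, 172 and 234 CPM in CTRL and 63.6, 55.4 and 47.7 CPM in PIO. The lowest CTRL library was well above the highest PIO library (log2 fold change -1.81 ± 0.29, 3.52-fold lower, adjusted p = 0.0153). Ecm2, a matrix protein related to small proteoglycans, went from 15.3, 11.6 and 11.4 CPM to 4.24, 2.02 and 4.72 CPM (-1.80 ± 0.33, adjusted p = 0.0261). Mfap4, of microfibrils, was at -1.34 ± 0.26 (adjusted p = 0.0402) and the fibulin gene Fbln7 at -1.41 ± 0.28 (adjusted p = 0.0402).

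Of 15 mesenchyme and fibroblast markers, 12 were lower and 3 higher (median -0.52). Postn alone passed the main test, where 0.116% of all genes were called lower. Dcn, the small proteoglycan decorin, was added with the block (13.3% of the list, against 1.24% of all genes called lower). Dcn was at 372, 301 and 400 CPM in CTRL and 234, 149 and 190 CPM in PIO (-0.90 ± 0.29, adjusted p = 0.245 and with the block 0.0288). Pdgfra, a receptor that marks fibroblasts, was at -0.41 ± 0.14 (adjusted p = 0.271). The list's mean log2 CPM was 7.88, 7.95 and 7.68 in CTRL and 7.18, 7.53 and 7.15 in PIO, so all PIO libraries lay below all CTRL libraries, but Col1a1 was at 212 CPM in PIO replicate 2 and under 78 CPM in the others. The part of connective tissue content in the matrix genes was not tested. Among 43 matrix proteases and their inhibitors, 37 were lower (median -0.31), none passed, and 3 passed with the block (6.98%, against 1.24% of all genes called lower): Adamts17, Mmp3 and, named after its value was seen, Timp4 (-1.59, adjusted p = 0.320 and with the block 0.0112). None of the 3 passed with the block once CTRL replicate 3 was left out, the library that holds nearly all reads of Mmp3.

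The other genes that fell have separate roles. Chd3, a chromatin remodelling ATPase, was at 394, 371 and 346 CPM in CTRL and 194, 207 and 173 CPM in PIO (-0.95 ± 0.16, adjusted p = 0.017). Cubn, an endocytic receptor, fell by 0.97 on the log2 scale (adjusted p = 0.0261), the adhesion receptor Adgrd1 by 2.18 (adjusted p = 0.0402), the secreted phospholipase gene Pla2g2d by 2.32 (adjusted p = 0.0402) and Trarg1, a factor in glucose transporter trafficking, by 2.07 (adjusted p = 0.0408). C1qtnf5 and Mfrp, counted together, fell by 1.65 (adjusted p = 0.0261). Pla2g2d was at no more than 2.1 CPM and Trarg1 at no more than 2.53 CPM in any library, so their values rest on few counts. Adgrd1 had 9, 21 and 13 counts in PIO, and all 3 genes were removed when at least 10 counts were required in every library. Exons of Cubn, Grm7, Mfap4, C1qtnf5 and Mfrp overlap genes on the other strand. So do exons of Hmgcs1, Eci2 and C1s1, which passed with the block but not the main test. Whether the counting used the strand is not given in the sources used here.

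Complement is the blood-borne cascade that tags cells for clearance, and 2 of its 30 tested genes passed the test, both lower, against 0.116% of all genes called lower. Serping1, the C1 inhibitor, was at 19.5, 16.8 and 34.3 CPM in CTRL and 8.8, 9.89 and 8.51 CPM in PIO (log2 fold change -1.37 ± 0.24, adjusted p = 0.0188). C1ra, a protease of the first complex, was at 4.92, 3.83 and 13.8 CPM in CTRL and 2.63, 1.5 and 1.43 CPM in PIO (-2.0 ± 0.37, adjusted p = 0.0293). In both, CTRL replicate 3 was the highest library. Without it the log2 fold changes were -1.0 (adjusted p = 0.150) and -1.23 (adjusted p = 0.190). C1s1, the partner protease, passed with the block but not the main test (-1.62 ± 0.36, adjusted p = 0.0736 and with the block 0.0238). It also passed with DESeq2, the likelihood ratio test and the covariate of Y-linked counts, and without CTRL replicate 2. C1ra and C1s1 each have a near-identical neighbour, so their counts are uncertain. With the block 3 of the 30 passed (10%, against 1.24% of all genes called lower). Of the 30, 20 were lower, with a median of -0.28, which was -0.17 without PIO replicate 1 and -0.49, with 26 lower, without PIO replicate 2. C3, the central component, was at 1.49, 2.31 and 37 CPM in CTRL and 0.578, 2.28 and 1.29 CPM in PIO, and CTRL replicate 3 was far above the others.

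Of 56 interferon-induced antiviral genes, 54 were lower in PIO and 2 higher (Isg20 and Eif2ak2), with a median log2 fold change of -0.73. None passed the test, with or without the block, and 16 had an unadjusted p under 0.05, all lower, against 6.51% of all genes. In 16 (28.6%) the PIO libraries lay wholly below the CTRL libraries, against 10.6% of all genes. The list's mean log2 CPM was 3.09, 2.48 and 3.55 in CTRL and 2.34, 2.46 and 2.33 in PIO, so CTRL replicate 2 lay next to the PIO libraries, and CTRL replicates 1 and 3 above them. Without CTRL replicate 3 the median was -0.32, with 50 of 56 lower. The other fits that left out 1 library gave medians from -0.64 without PIO replicate 3 to -0.95 without CTRL replicate 2. Receptor gene counts were also highest in CTRL replicates 1 and 3, and with them as a covariate the median was -0.68. With gentamicin at 24 h all 56 were lower (median -0.86), and at 6 h 27 were higher and 29 lower (median -0.02).

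Single genes of the list showed the spread within CTRL. Zbp1, a sensor of viral nucleic acid, was at 3.69, 2.38 and 8.90 CPM in CTRL and 1.29, 1.95 and 1.14 CPM in PIO (-1.75 ± 0.47, adjusted p = 0.159). Isg15, a ubiquitin-like protein, was at 2.37, 1.12 and 4.89 CPM in CTRL and 0.9, 1.17 and 0.715 CPM in PIO (-1.56 ± 0.64, adjusted p = 0.404). In both, CTRL replicate 3 was the highest library and CTRL replicate 2 the lowest of its group. Of 18 interferon-inducible GTPases, 13 were lower (median -0.69) and none passed, while 7 had an unadjusted p under 0.05, all lower (6.51% of all genes). In 8 (44.4%) the PIO libraries lay wholly below the CTRL libraries, against 10.6% of all genes. Without CTRL replicate 3 the median was -0.48. With gentamicin at 24 h 12 were lower and 6 higher (median -0.80), and at 6 h 5 were lower and 13 higher (median 0.20). The interferon response motif, GAAA written again after any 2 bases and searched on both strands, was in 17 of the 42 promoters found for the antiviral list (40.5%) and in 3.46% of all promoters. The promoters of Isg15 at chr4:156200819-156201068 (minus strand) and Ifit3 at chr19:34583279-34583528 (plus strand) are shown to give its letters in this list. Capitals mark the matches, which overlap in Isg15 and lie on the other strand in Ifit3.
Isg15: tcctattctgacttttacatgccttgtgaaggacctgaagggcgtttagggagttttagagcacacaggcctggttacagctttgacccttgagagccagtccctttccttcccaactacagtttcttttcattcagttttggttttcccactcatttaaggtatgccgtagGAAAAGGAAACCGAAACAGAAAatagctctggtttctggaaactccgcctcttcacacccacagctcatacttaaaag
Ifit3: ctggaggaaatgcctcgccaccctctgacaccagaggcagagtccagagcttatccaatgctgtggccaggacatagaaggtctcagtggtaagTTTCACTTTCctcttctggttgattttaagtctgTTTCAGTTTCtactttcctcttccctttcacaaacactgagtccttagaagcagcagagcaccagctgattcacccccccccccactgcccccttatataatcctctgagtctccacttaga

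Antigen presentation was read by its master regulator and its products. Ciita, which switches on MHC class II genes, was at 1.14, 0.991 and 1.13 CPM in CTRL and 0.129, 0.325 and 0.143 CPM in PIO. The PIO values stand for 2, 5 and 2 counts, of which those of replicates 1 and 3 lie below the floor of 3 counts, so no fold change is given. Its adjusted p was 0.0647, and 0.0313 with the block. Cd74, the class II chaperone, was at 1.67, 2.18 and 6.37 CPM in CTRL and 0.964, 1.04 and 0.715 CPM in PIO (-1.89 ± 0.48, adjusted p = 0.119). Of 12 class II genes 7 were lower (median -0.20), and Ciita was the sole one to pass with the block (8.33%, against 1.24% of all genes called lower). Without CTRL replicate 3, 10 of 13 were lower (median -0.32), and with at least 10 counts required in every library the median was 0.05, with 3 lower and 5 higher. Of 23 class I and peptide loading genes 19 were lower (median -0.26), and without CTRL replicate 3 there were 16 (median -0.11).

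Inflammatory mediators were read from an NF-κB list and a chemokine list. Of 34 NF-κB targets and cytokines 30 were lower (median -0.47), and without CTRL replicate 3 the median was -0.15. Mmp3, a stromelysin that degrades matrix, had 7, 3 and 740 counts in CTRL and 0, 1 and 0 counts in PIO, so 1 library carried nearly all of its reads. It passed with the block (adjusted p = 0.0313), and without CTRL replicate 3 its adjusted p in the fit without the block was 0.593. Il16, a chemoattractant for lymphocytes, was at 17.4, 22.7 and 16.1 CPM in CTRL and 7.07, 12 and 8.87 CPM in PIO, with no such library (-1.01 ± 0.33, adjusted p = 0.268, with the block 0.0468). Cxcl16, a membrane-bound chemokine, was at -1.12 (adjusted p = 0.109), within 29 chemokines and receptors of which 23 were lower and none passed (median -0.42). That median was -0.57 without CTRL replicate 3, -0.71 without CTRL replicate 2, -0.89 without PIO replicate 2 and -0.70 without PIO replicate 3. Mmp3 and Il16 were the members of the NF-κB list that passed with the block (5.88%, against 1.24% of all genes called lower).

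Of 49 genes of the TLR and STAT pathways, 35 were lower and 14 higher, with a median of -0.11, and none passed with or without the block. The median was -0.23 without PIO replicate 2, with 38 lower, and -0.07 without PIO replicate 1 or 3, with 28 lower in each. Tlr4, the endotoxin receptor, was at -0.51 (adjusted p = 0.463), Tlr2 at -0.48 (adjusted p = 0.598), and the adaptor Myd88 at -0.05 (adjusted p = 0.979). Pias1, an inhibitor of STAT signalling, was at 0.07 (adjusted p = 0.914). Of the 19 immune genes named in the study, which chose them on these samples, 17 were lower, 7 had an unadjusted p under 0.05, all lower (6.51% of all genes), and Il16 alone passed with the block (1.24% of all genes).

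**Figure D3:**
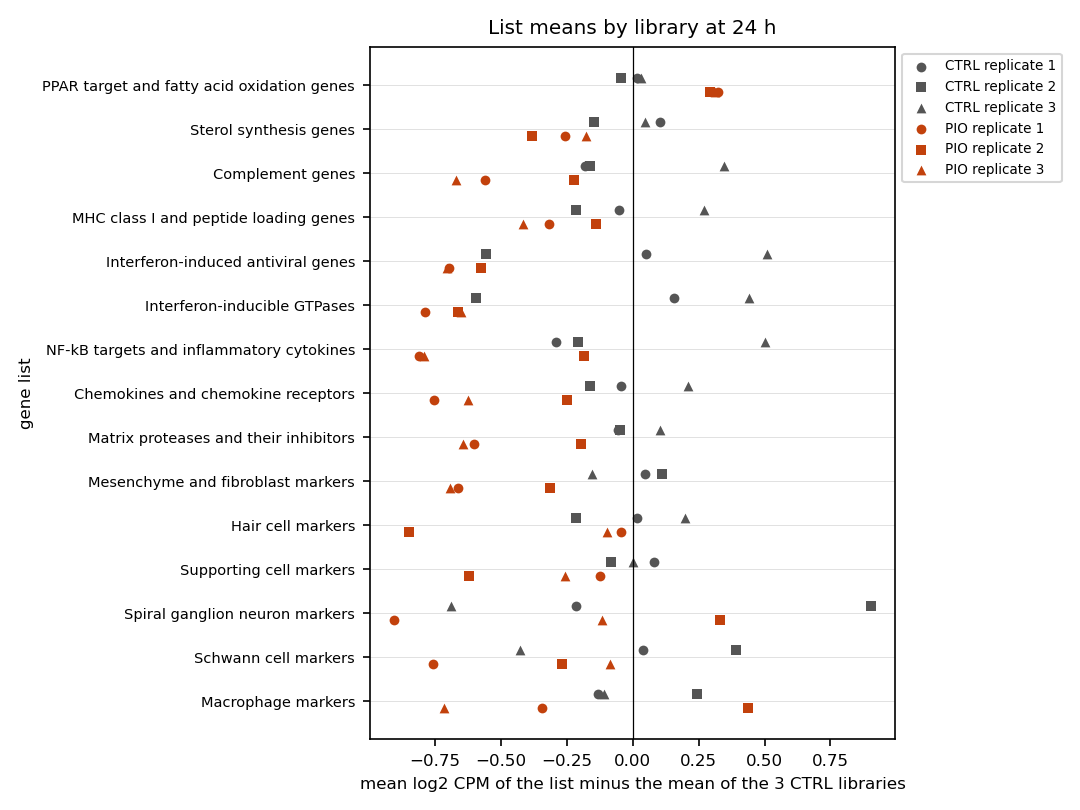
Mean log2 CPM of 15 gene lists in each of the 6 libraries at 24 h, minus the mean of the 3 CTRL libraries. The fatty acid oxidation list lies above zero in all 3 PIO libraries, and in the interferon-induced antiviral list CTRL replicate 2 lies beside the PIO libraries.

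Cell type markers gave few calls. Of 30 hair cell markers, 26 were lower and none passed. Their mean log2 CPM was 4.56, 4.32 and 4.74 in CTRL and 4.50, 3.69 and 4.44 in PIO, with PIO replicate 2 apart from the rest, and without it the median log2 fold change went from -0.29 to -0.09. It was -0.17 without CTRL replicate 3. Of 26 supporting cell markers 24 were lower, or 16 without PIO replicate 2, and none passed. Of 25 macrophage markers 12 were higher and 13 lower (median -0.09), and none passed. Their mean log2 CPM was 2.46, 2.83 and 2.48 in CTRL and 2.24, 3.02 and 1.87 in PIO, with PIO replicate 2 the highest library. Without it 1 was higher and 24 were lower (median -0.40), and with the receptor gene counts as a covariate 2 were higher and 23 lower. The part of macrophage content in the immune genes was not tested. Acta2, smooth muscle actin, alone of 18 endothelial and pericyte markers passed with the block (5.56%, against 1.24% of all genes called lower). It did not pass the main test (-1.83 ± 0.38, adjusted p = 0.0571 and with the block 0.0209), but passed with DESeq2, the likelihood ratio test and the receptor covariate. Lists of integrated stress response, antioxidant and cell cycle genes gave no calls, with medians of 0.05, -0.06 and 0.14. Leaving out 1 library changed each of them by less than the spread between replicates. The stress response median ran from -0.12 without CTRL replicate 3 to 0.23 without PIO replicate 1, the antioxidant median from -0.11 without PIO replicate 1 to -0.04 without PIO replicate 3, and the cell cycle median from -0.10 without PIO replicate 2 to 0.46 without CTRL replicate 2.

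The same drug was read in separate libraries against gentamicin, and at 6 h. Between PIO + GM and GM at 24 h 18 genes passed (0.11%). All 25 genes called with pioglitazone alone had the same direction there, against 72.1% of all tested genes, and 10 of the 25 passed. Cpt1a was at 1.06 (adjusted p = 0.00041), Angptl4 at 2.67 (adjusted p = 0.0137) and Acadl at 0.72 (adjusted p = 0.0226) on the log2 scale. Of the genes that fell, Postn was at -1.69 (adjusted p = 0.0342), Ecm2 at -1.73 (adjusted p = 0.0372), and C1ra at -0.65 (adjusted p = 0.745). In the test of the difference between these effects, 0 genes passed by edgeR or DESeq2, with 197 at an unadjusted p under 0.05 (1.21%).

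At 6 h, 55 genes passed between PIO and CTRL (0.337%). The 6 genes that rose at 24 h were all higher at 6 h, against 62.7% of all genes higher at 24 h, but only Cpt1a (0.88, adjusted p = 0.00525) and Klf11 (0.88, adjusted p = 0.0461) passed. Angptl4 was at 1.29 ± 0.41 (adjusted p = 0.156). Of the 19 genes that fell, 12 (63.2%) were lower at 6 h, close to the 61.5% of all genes lower at 24 h, with a median log2 fold change of -0.36 against -1.57 at 24 h, and Chd3 (-0.82, adjusted p = 0.0342) and Gap43 (-1.26, adjusted p = 0.0244) passed. No gene passed the test of the difference between the times without the block, where the lowest adjusted p was 0.898 and 714 genes had an unadjusted p under 0.05 (4.38%). DESeq2 gave 1 gene, as did the likelihood ratio test, and with the block Ecm2 alone passed (0.00613%). Of the 25 genes, which were chosen on the 24 h effect that enters this difference, 18 had an unadjusted p under 0.05.

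**Figure D4:**
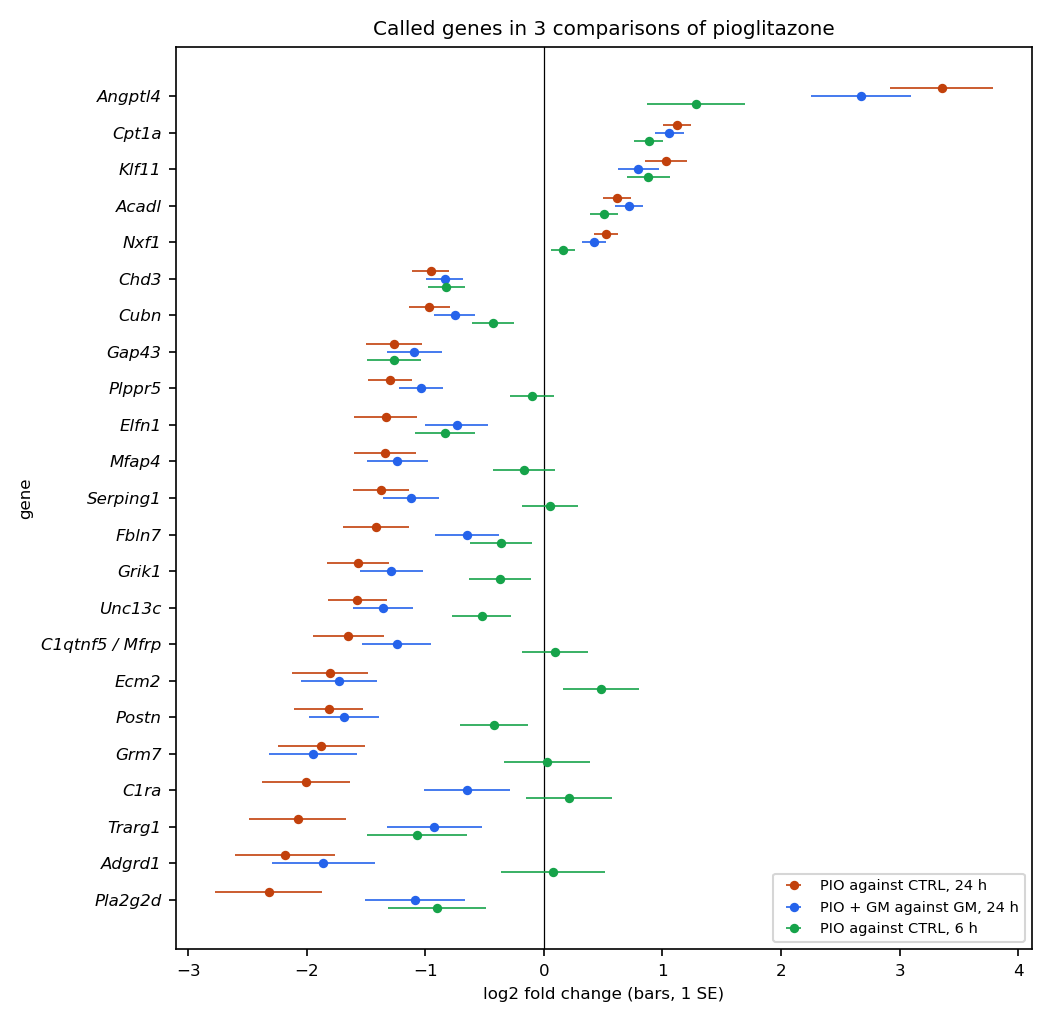
log2 fold change (points, with bars of 1 SE) of 24 of the 25 genes called in PIO against CTRL at 24 h, in that comparison, in PIO + GM against GM at 24 h and in PIO against CTRL at 6 h. The gentamicin comparison has the same sign for every gene shown, while at 6 h points of 7 genes that fell lie above zero.

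The number of calls depended on the library set. Leaving out each library in turn gave 2 to 51 calls. It was 10, 51 and 2 without CTRL replicates 1, 2 and 3, and 12, 2 and 3 without PIO replicates 1, 2 and 3. Without CTRL replicate 3 and without PIO replicate 2, both calls were of genes that rose, and no gene passed as lower. Cpt1a and Angptl4 passed in each of these 6 fits and in every other setting tried, 18 in all. The other 23 were all lost without CTRL replicate 3 and without PIO replicate 2. Plppr5 passed in 4 of the 6 fits, the most of the 23, and Acadl, Chd3, Ecm2, Grm7, Elfn1 and Fbln7 in 1 each. Over all settings, Pla2g2d and Adgrd1 passed in the fewest, 6 of 17. Without CTRL replicate 3, Klf11 was at 0.91 (adjusted p = 0.162) and Postn at -1.67 (adjusted p = 0.108), near their values with it, whereas C1ra and Serping1 moved towards zero as given above. With the block but without that library, 13 genes passed, and all 13 were among the 241. Of the genes described above as passing with the block but not the main test, Nos1 alone was among them (adjusted p = 0.0475).

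**Figure D5:**
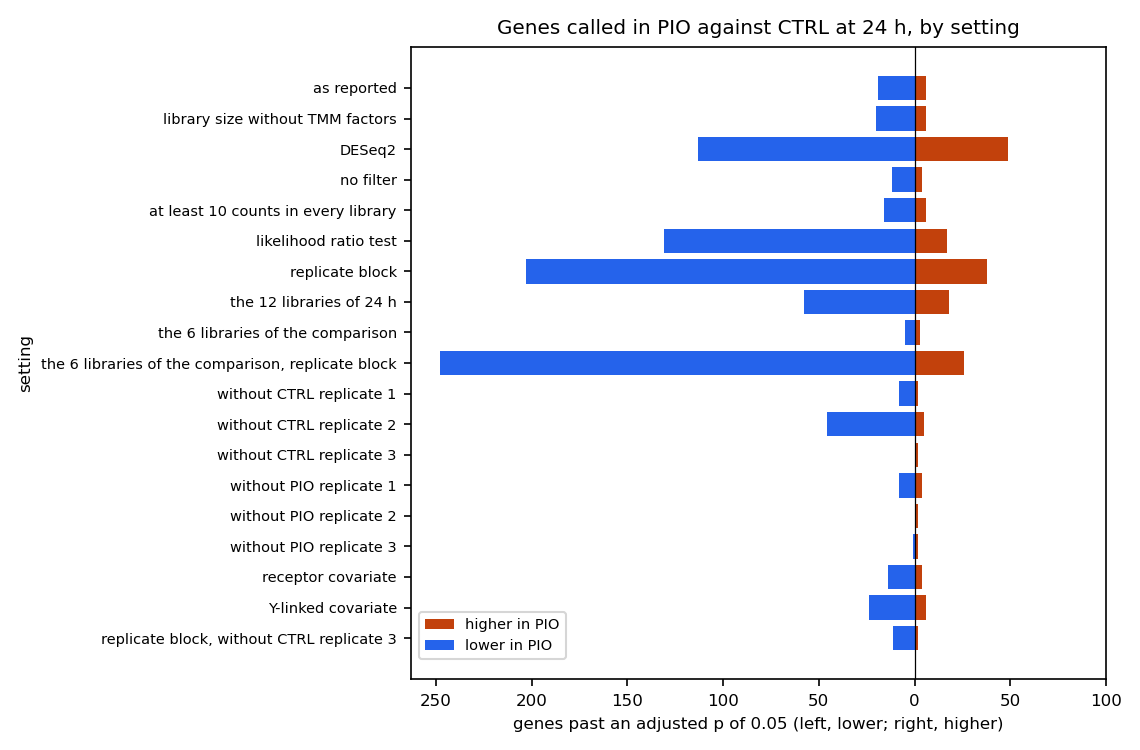
Number of genes called higher (bars to the right) and lower (bars to the left) in PIO against CTRL at 24 h under each setting of the analysis. Counts run from 2, without CTRL replicate 3 or PIO replicate 2, to 274, with the block in the 6 libraries of the comparison.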

How the data were processed

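RNA was sequenced in 24 libraries of OC explants, and the table holds raw counts per gene and library. The authors mapped reads with STAR to mm10 (named in the labels) and counted, with qCount of QuasR, reads that started in any RefSeq exon. No scaling or filter had been applied to the deposited counts. The kit marks strand, but whether the counting used it, and how multiply mapping reads were handled, is not given in the sources used here. Columns were tied to samples by the labels.

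A single edgeR 4.0.16 model (R 4.3.3) of 8 group means was fitted to the 24 libraries, with TMM scaling, filterByExpr and the quasi-likelihood F-test. The filter kept 16317 genes, and adjusted p-values are Benjamini-Hochberg values over all of them (threshold 0.05). Standard errors came from the F statistic, CPM were TMM-scaled, and log2 CPM used a prior count of 2. limma 3.58.1 was loaded with edgeR, DESeq2 1.42.0 was an alternative, and tables and plots used Python 3.11.15, pandas 2.3.3 and matplotlib 3.10.9. The fitting script was tested on simulated data. Replicate pairs differed by far more than sampling noise (chi-square per degree of freedom 10.2 to 41.5), so each library counted once.

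The labels give groups the same replicate numbers. Deviations from the group means correlated between same-numbered CTRL and PIO libraries at 0.1075, 0.5608 and 0.227, all over 0.1, so the numbers were taken to pair the samples, although CTRL replicate 3 correlated more with PIO replicate 1 (0.4157) and CTRL replicate 1 more with PIO replicate 3 (0.246). The fit with the number as a block is given where it changed a call.

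Of 24454 identifiers, 24381 were matched to a symbol. Named genes are all those past the threshold, up to 4 per list by p-value, and genes named in the study. Also named are up to 8 per direction past it with the block but not the main test, interaction calls and cell markers. The first genes of the PPAR, LXR and MHC class II lists were named as well. The members, the 28 gene lists and the rule were chosen with earlier results of these data known. Results of 4 genes are not reported here; they remain in the counts and lists. Alternatives were library size without TMM, DESeq2, no filter, at least 10 counts in every library, the likelihood ratio test, the block, the 12 libraries of 24 h or the 6 of the comparison, and leaving out each library. Covariates for receptor or Y-linked counts, and the block without CTRL replicate 3, were added after seeing the data.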

Additional observations from a re-analysis of the deposited data

Results flagged for a closer look

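The pioglitazone effect on Ecm2, a matrix gene, differed between 24 h and 6 h in the fit with the replicate block, by -2.37 on the log2 scale (adjusted p = 0.0204). It was lower with pioglitazone at 24 h (-1.80 without the block, -1.86 with it) and at 0.48 and 0.51 at 6 h. Without the block the difference was -2.29 (adjusted p = 0.898).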

How the results depend on the processing

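PIO against CTRL at 24 h gave 25 calls, and 162 with DESeq2, which included all 25, 16 with no filter, 148 with the likelihood ratio test, 76 in the 12 libraries of 24 h, 8 in the 6 libraries of the comparison and 274 in those 6 with the replicate block. With the replicate block over all libraries, where the numbers were taken to pair the samples, there were 241, and 13 when CTRL replicate 3 was also left out. Leaving out each library gave 2 to 51. At 6 h the 55 calls became 383 with DESeq2, 22 with no filter, 95 with the strict filter, 211 with the likelihood ratio test and 371 with the block, and without TMM they were 30 higher and 21 lower, against 24 and 31. PIO + GM against GM went from 18 to 112 with DESeq2, 72 with the likelihood ratio test, 98 with the block and 40 in the 12 libraries. The difference between the times went from 0 to 1 with DESeq2, the likelihood ratio test and the block.

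Single log2 fold changes turned sign in 16 cases, none of them of a called gene. Leaving out each library, Lrp2 ran from -0.378 to 0.0131, Gas6 from -0.87 to 0.515, Ccl12 from -0.958 to 0.129, Myd88 from -0.16 to 0.108 and Ppara from -0.0758 to 0.0918. With the block and without CTRL replicate 3, Myd88 was at 0.127, Ccl9 at 0.0859 and Ppara at 0.0572. Ppara was at 0.00858 without TMM, 0.00867 with DESeq2, 0.0158 with no filter and 0.0153 with the strict filter. Over all named genes and settings, 2434 values kept direction and side of the threshold, 120 gained and 168 lost a call, and of the list medians 28 moved by more than the spread between replicates and 448 did not. The cause of these changes was not tested. Depth limits genes near 3 counts, such as Ciita in PIO.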
